A study of Mus musculus with 2 samples.

Results

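Collagen chain genes, chosen by their symbols (Col, a number, a, a number), were described in M210B4, an established stromal cell line from mouse bone marrow. The array annotation names 44 such genes of 22180 genes with a probe set of their own. The cells were treated for 24 h with a CD84-activating antibody (clone 152-1D5) or with an IgG1 isotype control antibody, and both treatments shared RPMI medium with 2% serum at 37 °C and 5% CO2. RNA of each treatment went onto 1 Affymetrix Mouse Gene 2.0 ST array, so every difference lies between 2 arrays, without replicates, an error or any test, and the number of arrays limits the precision.

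Collagens are built from chains that wind around each other into a rigid helix, and they are the main load-bearing proteins of the extracellular matrix. Fibrillar collagens form the ropes of connective tissue, type IV collagen forms the sheet of basement membranes, type VI collagen forms beaded filaments between them, and FACIT collagens (fibril-associated collagens with interrupted helices) decorate fibrils. Marrow stromal cells are known as a source of collagens of the marrow matrix, on which haematopoietic cells rest.

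Values are the deposited log2 expression values, and a difference is the anti-CD84 value minus the IgG1 value. A gene was called detected when it was above 4.84 on at least 1 array, a level under which 95% of values of 1394 receptor genes of smell and pheromone sensing lay, since these genes are not thought to be used by stroma. Where 1 array was below that level, a fold is counted from it and written as "at least". Of 22180 genes 13290 were detected, and their differences had a median of 0.09 and a standard deviation of 0.44. Of 10 stroma and fibroblast markers 9 were detected, and Lepr, the leptin receptor, was below the level on both arrays. Ptprc, the pan-leukocyte gene, was undetected (3.90 and 3.86), as was Cd84 itself (4.15 after anti-CD84 and 3.82 after IgG1).

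More collagen chains were lower than higher after anti-CD84, while the balance of all detected genes depended on the scaling. Of the 44 chains 34 were detected, 27 of them on both arrays and 7 on 1 array, and 10 were below the level on both. At 1.5-fold, 1 chain was higher (2.94% of the detected chains, against 10.7% of all detected genes) and 5 were lower (14.7%, against 6.4%). With the differences centred on the median of all detected genes the chains split into 0 higher and 5 lower; with the loess trend over level taken out they split into 2 and 5. All detected genes split into 1427 higher and 850 lower as measured, 1024 and 1128 when centred, and 1121 and 975 after loess. These counts use differences as measured, and with values floored at the detection level the chains split into 1 higher and 4 lower. Counted in either direction the chains past 1.5-fold made up 17.6%, near the 17.1% of all detected genes. No chain reached 2-fold as measured, while 1.98% of detected genes did upward and 1.43% downward. With the loess trend taken out Col2a1 came to -1.002, just past 2-fold lower. The median difference of the detected chains was -0.14, and 23 of 34 (67.6%) had a negative difference, against 41% of all detected genes. With 1 array per treatment these shares describe the arrays and carry no test.

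**Figure D1:**
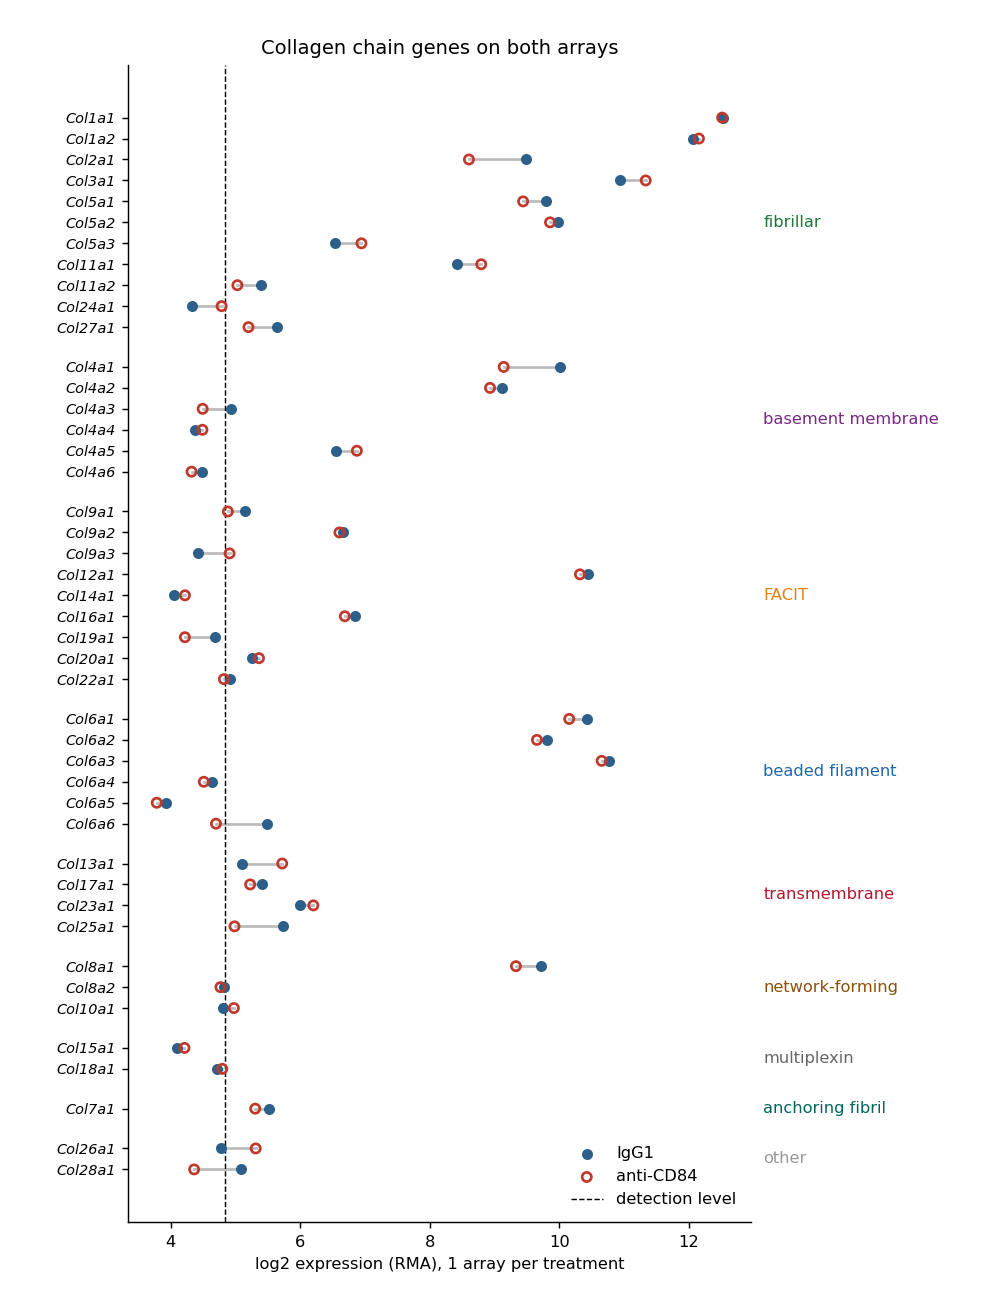
Log2 expression of the 44 collagen chain genes on the IgG1 array (filled circles) and the anti-CD84 array (open circles), grouped by class, with the detection level of 4.84 as a dashed line. The wide gaps of Col2a1 and Col4a1 lie well above the detection level, and 10 chains lie below it on both arrays.

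The chains past 1.5-fold were Col2a1, Col4a1, Col6a6, Col25a1 and Col28a1 on the lower side and Col13a1 on the higher side, by differences as measured. Counted from the detection level, Col28a1 was at least 1.19-fold lower and so not past it. Of these, Col2a1, Col4a1, Col25a1 and Col13a1 passed the detection level on both arrays, which is 3 lower (11.1% of 27, against 3.88% of all genes so measured) and 1 higher (3.7%, against 9.56%). Among chains measured on both arrays, Col27a1 (-0.44) lay nearest inside the threshold and Col13a1 (0.63) nearest outside it.

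Among strongly measured chains, small negative differences were the rule by their brightest probe sets. With a mean level above 9 there were 13 chains, and 11 of them (84.6%) had a negative difference, against 35.1% of the 2208 genes in that range. The exceptions were Col1a2 and Col3a1. Col1a1, counted as negative, was at -0.01. Further probe sets had the opposite sign for Col5a1 (0.62), Col6a1 (0.63) and Col1a2 (-0.34). The median difference of the 13 chains was -0.15, against 0.10 for all genes in the range, whose standard deviation was 0.30. Of the 13, 2 were past 1.5-fold, Col2a1 and Col4a1, both lower. In this range 1.22% of all genes were 1.5-fold lower and 4.76% were 1.5-fold higher. Of the 2208 genes 9, Col2a1 included, were as low as Col2a1, and 10 were as low as Col4a1. Over all 13290 detected genes 277 (2.08%) were as low as Col2a1 and 293 (2.2%) as low as Col4a1. The mean level of Col2a1 was 9.05, close to the edge of the range. Of the 13 chains measured on both arrays with a mean level up to 7, 8 (61.5%) had a negative difference, against 44.6% of the 5015 genes in that range. The differences of those genes had a standard deviation of 0.43. Across the 27 chains measured on both arrays the difference showed little relation to the mean level (Spearman rho 0.13, Pearson r -0.02). All these points come from the same pair of arrays and are not independent.

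**Figure D2:**
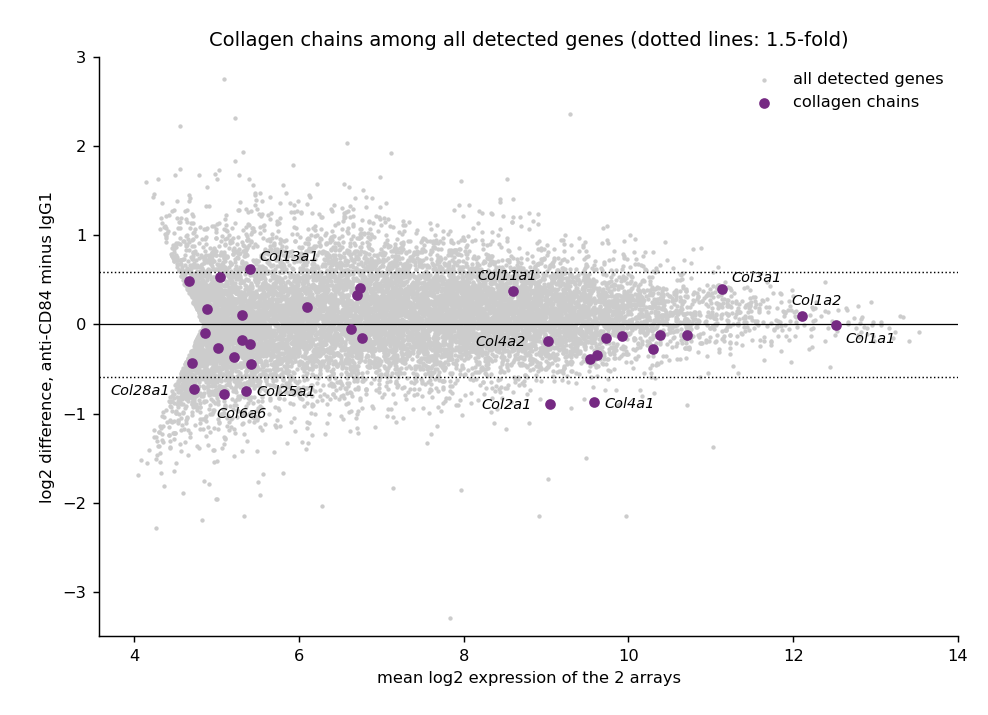
Log2 difference (anti-CD84 minus IgG1) against the mean log2 level for all 13290 detected genes (grey) and the 34 detected collagen chains (purple), with 1.5-fold as dotted lines. Col2a1 and Col4a1 lie below most genes of their level, and Col1a1 lies at a difference of -0.01.

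For 3 chains a further probe set of the same gene was on the array, and its difference had the opposite sign each time. The brighter probe set of Col1a2 differed by 0.10 and the other by -0.34 (9.65 after anti-CD84 and 9.99 after IgG1). For Col5a1 the differences were -0.35 and 0.62, and the dimmer probe set was at 5.23 and 4.61. For Col6a1 they were -0.28 and 0.63, and the dimmer probe set was at 6.998 and 6.37. The signs of Col1a2, Col5a1 and Col6a1 therefore depended on the probe set, and none of these genes was past 1.5-fold by its brighter one. Whether the probe sets target the same transcripts was not examined, and the other 41 chains had 1 probe set each.

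Fibrillar chains went both ways, and those of type I, the bulk collagen of bone and skin, were nearly level. Col1a1 was at 12.52 after anti-CD84 and 12.53 after IgG1. Col1a2, its partner in the type I molecule, was at 12.16 and 12.06. Neither treatment stood apart for either type I chain, with differences of -0.01 and 0.10. Col3a1, which forms type III fibrils of elastic and reticular tissue, was at 11.34 after anti-CD84 and 10.94 after IgG1, 1.32-fold higher.

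Type V chains, which start and limit fibril growth, were split. Col5a1 was at 9.44 after anti-CD84 and 9.79 after IgG1, Col5a2 at 9.86 and 9.98, and Col5a3 at 6.95 and 6.54. Thus Col5a3 was 1.33-fold higher while Col5a1 was 1.27-fold lower and Col5a2 1.09-fold lower. All were within 1.5-fold.

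The cartilage-type fibrillar chains held the lowest difference of the whole family. Col2a1, which encodes the main fibril chain of cartilage and, as a further product, a chain of type XI collagen, was at 8.61 after anti-CD84 and 9.49 after IgG1, 1.85-fold lower. Its type XI partners differed from it and from each other. Col11a1 was at 8.80 and 8.41, 1.30-fold higher, and Col11a2 was at 5.03 and 5.39, 1.29-fold lower. The differences of these 3 chains spanned 1.27 on the log2 scale, the widest span of the heterotrimers with every chain measured on both arrays. Col27a1, a fibrillar chain of growing cartilage, was at 5.20 and 5.64, 1.36-fold lower, and Col24a1, a minor fibrillar chain, was not detected on either array.

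The detected chondrocyte markers were also lower on the anti-CD84 array, where Col2a1 was lower. Sox9, the transcription factor that drives Col2a1 in cartilage, was at 7.99 after anti-CD84 and 8.50 after IgG1, 1.42-fold lower. Of 7 chondrocyte markers 2 were detected, Sox9 on both arrays and Comp only on the IgG1 array (4.53 and 5.03, at least 1.14-fold lower). The other 5 were below the level on both arrays, among them the defining proteoglycan Acan (3.88 and 4.66) and Matn1 (4.45 and 4.04). The linear values of the 7 markers, the 5 undetected ones included, summed to 363 after anti-CD84 and 502 after IgG1, most of it from Sox9. The part of these markers in the Col2a1 difference was not tested. As a class the 10 detected fibrillar chains had 0 members 1.5-fold higher and 1 lower, against 10.7% and 6.4% of all detected genes. Their median was -0.07, and 0.04 over the 8 chains at a stricter detection level of 6.88.

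Among basement membrane chains Col4a1 was 1.83-fold lower after anti-CD84 and its obligate partner Col4a2 1.13-fold lower. Col4a1 and Col4a2 encode the chains of the common type IV network found under most epithelia and vessels, and they are transcribed away from each other from neighbouring start sites. Col4a1 was at 9.14 after anti-CD84 and 10.02 after IgG1, and Col4a2 at 8.93 and 9.11. The gap between their differences was 0.69 on the log2 scale, which measures unequal change within these arrays and carries no test.

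The RefSeq promoter windows of this pair (GRCm38.p6, 250 bases before to 50 after each start) are shown because the genes share this region and yet differed unequally. Col4a1 lies on the minus strand (chr8:11312777-11313076) and Col4a2 on the plus strand (chr8:11312555-11312854). Each window is written 5′ to 3′ on its gene's strand, and capitals mark every CCAAT box (CCAAT), GC box (GGGCGG) and TATA box (TATAAA) on either strand.
Col4a1: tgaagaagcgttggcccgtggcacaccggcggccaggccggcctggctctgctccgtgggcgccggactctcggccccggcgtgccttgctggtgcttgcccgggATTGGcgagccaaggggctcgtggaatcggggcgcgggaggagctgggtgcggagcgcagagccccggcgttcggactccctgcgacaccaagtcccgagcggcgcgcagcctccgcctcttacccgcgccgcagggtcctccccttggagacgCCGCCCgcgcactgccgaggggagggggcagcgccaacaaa
Col4a2: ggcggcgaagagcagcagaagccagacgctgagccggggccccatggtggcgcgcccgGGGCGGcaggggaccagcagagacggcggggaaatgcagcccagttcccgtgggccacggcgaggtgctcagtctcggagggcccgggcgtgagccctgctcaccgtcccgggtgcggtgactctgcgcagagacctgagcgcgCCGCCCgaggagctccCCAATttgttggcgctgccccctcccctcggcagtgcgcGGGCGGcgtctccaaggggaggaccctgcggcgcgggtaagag
The windows overlap by 78 bases (chr8:11312777-11312854). The annotated starts lie 21 bases apart, with the Col4a1 start inside the Col4a2 transcript and the reverse. A GC box at chr8:11312812-11312817 is in both windows, with its first base at position 10 of Col4a1 and 8 of Col4a2. The Col4a2 window holds a CCAAT box at -32 and GC boxes at -192 and -48, and the Col4a1 window holds a CCAAT box at -145, counted from each gene's own start with its first base as 1. No TATA box by these letters lies in either window.

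**Figure D3:**
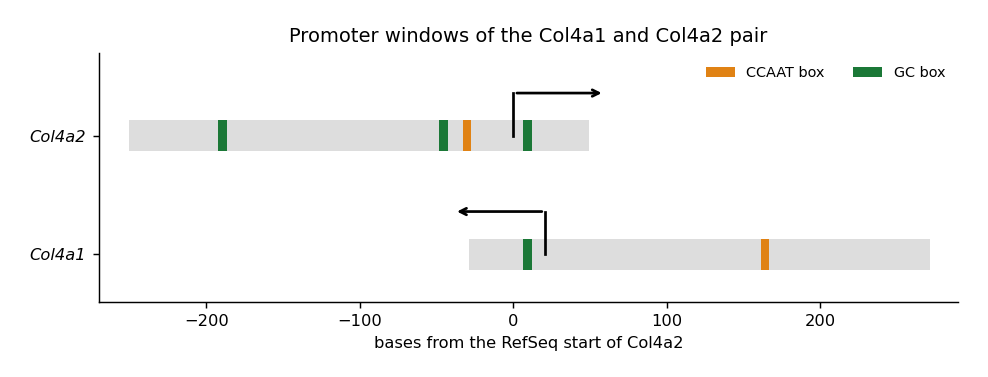
Promoter windows of Col4a1 and Col4a2 (grey bars) in bases from the RefSeq start of Col4a2, with starts and directions as arrows, CCAAT boxes in orange and GC boxes in green. The windows overlap by 78 bases, and 1 GC box lies in the overlap between the starts.

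The remaining type IV chains, which build the specialised networks of kidney, lung and smooth muscle, were dim. Col4a5 was at 6.87 after anti-CD84 and 6.55 after IgG1, 1.26-fold higher. Col4a3 was at 4.49 and 4.92, at least 1.06-fold lower, and Col4a4 and Col4a6 were undetected. Of the 4 detected basement membrane chains 1 was 1.5-fold lower and 0 higher, against 6.4% and 10.7% of all detected genes. Their median was -0.31, and -0.18 over the 3 measured on both arrays.

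Of the endothelial markers Cdh5 and Pecam1 were lower on the anti-CD84 array, where Col4a1 was lower, and Emcn was nearly equal on both. Of 6 endothelial markers 3 were detected. Cdh5, the adhesion protein of endothelial junctions, was at 4.61 after anti-CD84 and 5.56 after IgG1, at least 1.65-fold lower. Pecam1 was at 4.32 and 4.99, at least 1.11-fold lower. Both passed the detection level only on the IgG1 array. Emcn, the only one above the level on both arrays, was at 5.19 on each, and Kdr, Tek and Vwf were below the level on both. The linear values of all 6 probe sets, 5 of them below the detection level on the anti-CD84 array, summed to 133 after anti-CD84 and 181 after IgG1. Markers of other cell types also differed. Of 3 detected epithelial markers Cdh1 differed by -0.95, Krt8 by -0.15 and Krt18 by 0.23. Cdh1 passed the detection level only on the IgG1 array (4.73 and 5.68), and its further probe set differed by -0.08. The 3 detected adipocyte markers differed by -0.25 to -0.57, with Plin1 and Fabp4 above the level only on the IgG1 array. Of 9 detected stromal markers 7 had a positive difference, with Cxcl12 at 1.10 and Pdgfra at 0.92. The other 2 were Thy1 (-0.56) and S100a4 (-0.21). The part of any of these markers in the Col4a1 difference was not tested.

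The main beaded filament chains were within 1.5-fold. Col6a1 was at 10.16 after anti-CD84 and 10.43 after IgG1, Col6a2 at 9.66 and 9.81, and Col6a3 at 10.66 and 10.77. These are the chains of the common type VI molecule, a link between cells and fibrils, and they had differences of -0.28, -0.15 and -0.12, a span of 0.16. Col6a6, a chain that can take the place of Col6a3, was at 4.70, below the detection level, after anti-CD84 and at 5.48 after IgG1, at least 1.56-fold lower. Col6a4 and Col6a5, its neighbours in the same gene cluster, were below the level on both arrays. All 4 detected chains of the class had a negative difference by their brightest probe sets, also after each rescaling, with Col6a1 positive (0.17) when its probe sets were averaged. The median was -0.22.

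FACIT chains held no member past 1.5-fold among 7 detected, against 17.1% of all detected genes. Col12a1, which binds type I fibrils in tendon and bone, was at 10.32 after anti-CD84 and 10.44 after IgG1. Col16a1 was at 6.69 and 6.84 and Col20a1 at 5.36 and 5.26. Type IX chains, which coat cartilage fibrils, were dim. Col9a1 was at 4.88 and 5.15, and Col9a2 at 6.60 and 6.66. Col9a3 was at 4.91 and 4.42, at least 1.05-fold higher. Col22a1, of tissue junctions, was at 4.82 and 4.91, at least 1.05-fold lower. Col14a1 and Col19a1 were below the level on both arrays, and the median of the class was -0.09.

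Transmembrane chains, which are anchored in the cell surface, had 1 of 4 members higher and 1 lower by 1.5-fold. Of all detected genes 10.7% were 1.5-fold higher and 6.4% lower. Col13a1, found at adhesion sites and the neuromuscular junction, was at 5.72 after anti-CD84 and 5.09 after IgG1, 1.54-fold higher. Col25a1, a chain needed for motor innervation of muscle, was at 4.98 and 5.73, 1.67-fold lower. Both levels lay near the detection level, and Col13a1 came to 0.54 with the differences centred on the median, which is inside 1.5-fold. Over all 13290 detected genes 1209 (9.1%) were as high as Col13a1 and 478 (3.6%) as low as Col25a1. Col17a1, of hemidesmosomes, was at 5.22 and 5.40, and Col23a1 was at 6.20 and 6.002.

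The promoter windows of Col13a1 and Col25a1 are shown as the other chains past 1.5-fold on both arrays with a window in the RefSeq table, marked in the same way. Col13a1 is on the minus strand (chr10:61979059-61979358) and Col25a1 on the plus strand (chr3:130180595-130180894).
Col13a1: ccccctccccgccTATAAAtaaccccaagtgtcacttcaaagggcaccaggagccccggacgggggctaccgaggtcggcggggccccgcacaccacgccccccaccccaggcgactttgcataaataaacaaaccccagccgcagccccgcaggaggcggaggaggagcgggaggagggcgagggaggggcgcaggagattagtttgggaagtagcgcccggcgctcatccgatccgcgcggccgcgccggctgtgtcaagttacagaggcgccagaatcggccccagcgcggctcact
Col25a1: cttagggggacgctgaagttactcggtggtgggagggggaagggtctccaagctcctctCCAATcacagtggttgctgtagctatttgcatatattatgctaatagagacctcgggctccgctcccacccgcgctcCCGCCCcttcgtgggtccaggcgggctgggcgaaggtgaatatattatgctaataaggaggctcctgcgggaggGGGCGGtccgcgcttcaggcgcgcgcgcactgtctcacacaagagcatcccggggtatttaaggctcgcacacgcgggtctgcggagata
Col25a1 holds a CCAAT box at -191 and GC boxes at -114 and -40. Col13a1 holds a TATA box at -237 and neither of the other motifs.

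Over the family, GC boxes were common and the other motifs were not. The table holds windows for 35 of the 44 chains, 38 windows in all since 3 chains have 2. A GC box was in 23 of 38 windows (60.5%), against 35.7% of all 32851 windows. A CCAAT box was in 13 (34.2%, against 37.4%) and a TATA box in 5 (13.2%, against 13.6%). The median GC content of the collagen windows was 59.8%, against 52.7% for all, and a GC-rich motif is met more often in GC-rich sequence. These letter matches describe the windows and mark no known binding site.

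Of the remaining classes only Col8a1 was strongly measured. Col8a1, a network-forming chain of vessel walls and the cornea, was at 9.33 after anti-CD84 and 9.72 after IgG1, 1.31-fold lower, and its partner Col8a2 was below the detection level on both. Col10a1, the marker chain of hypertrophic cartilage, was at 4.97 and 4.80, at least 1.10-fold higher. Col7a1, which forms the anchoring fibrils of skin, was at 5.30 and 5.52, 1.16-fold lower. The multiplexins Col15a1 and Col18a1, basement membrane zone collagens that carry the endostatin-type fragments, were below the level on both arrays. Col26a1 was at 5.31 and 4.78, at least 1.39-fold higher, and Col28a1 at 4.36 and 5.09, at least 1.19-fold lower. The 10 undetected chains had values from 3.78 to 4.82, which have no order.

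**Figure D4:**
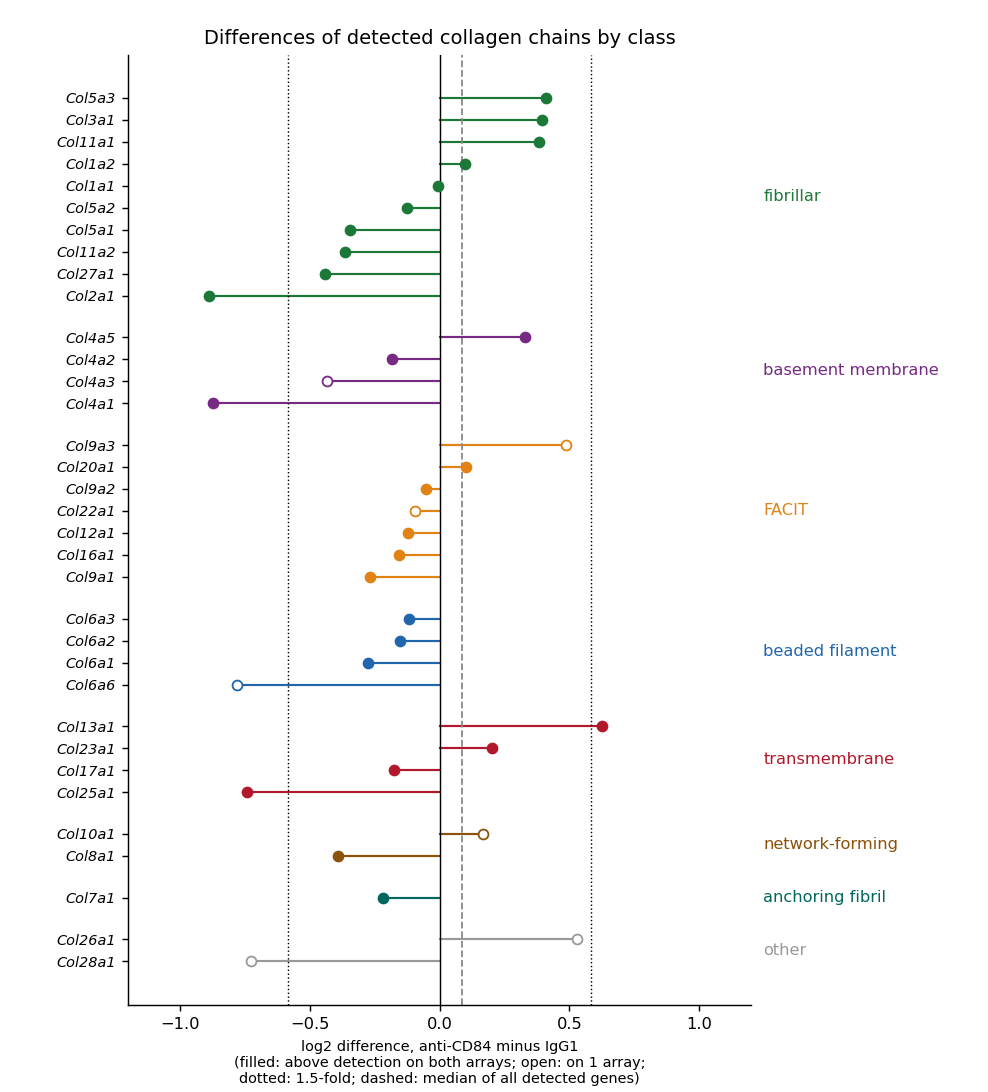
Log2 difference (anti-CD84 minus IgG1) of the 34 detected collagen chains by class, filled where both arrays were above the detection level and open where 1 was, with 1.5-fold as dotted lines and the median of all detected genes (0.09) as a dashed line. Each of the beaded filament chains lies to the left of 0, and the transmembrane chains lie on both sides.

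Neighbouring collagen genes had differences of unlike sign in 1 of 3 pairs measured on both arrays, by their brightest probe sets. Col3a1 and Col5a2, side by side in RefSeq, had differences of 0.40 and -0.13. Col6a1 and Col6a2, also neighbours, had -0.28 and -0.15. Col4a1 and Col4a2 were the third such pair. Within heterotrimers measured in full, the spans were 0.10 for type I, 0.16 for type VI, 0.69 for type IV and 0.76 for type V. By their brightest probe sets type I, type V and type XI had chains on both sides of 0, type I narrowly (-0.01 and 0.10). The type IV and type VI chains lay on 1 side.

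The machinery that modifies and exports collagen chains held no gene past 1.5-fold. Among 13 detected hydroxylation and glycosylation genes 0 were 1.5-fold higher or lower, against 10.7% and 6.4% of all detected genes. For genes measured on both arrays with a mean level above 9 those shares were 4.76% and 1.22%. The median of the list was 0.14, and 0.02 to 0.06 after the 3 rescalings. Colgalt1, which adds galactose to hydroxylysine, was at 9.05 after anti-CD84 and 9.57 after IgG1, 1.43-fold lower, and passed 1.5-fold after each of 3 rescalings. Plod1, a lysyl hydroxylase, was 1.31-fold higher (9.76 against 9.37), and P3h2, a prolyl hydroxylase active on type IV collagen, was 1.35-fold lower (5.07 against 5.51). P3h4, of the lysyl hydroxylase complex, was 1.28-fold higher (9.003 against 8.64).

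Chaperones and export factors likewise had 0 of 13 detected members past 1.5-fold, against 17.1% of all detected genes, and 1 (Creb3l1) was lower after loess. Their median was -0.01, and -0.09 to -0.11 after the 3 rescalings. Serpinh1, the collagen-specific chaperone HSP47, differed by -0.07 (10.55 and 10.63). Creb3l1, a transcription factor that drives Col1a1 in bone, was 1.41-fold lower (8.97 against 9.47) and its relative Creb3l2 1.32-fold higher (8.90 against 8.50). Klhl12, which helps build large COPII carriers, was 1.33-fold higher (6.42 against 6.01), and the COPII coat gene Sec24d was 1.28-fold higher (9.63 against 9.27).

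Genes that trim and cross-link collagen outside the cell were also within 1.5-fold, which 17.1% of all detected genes passed in either direction. Of 5 detected propeptide processing genes 0 were past it (median 0.03, of either sign depending on the scaling). Adamts14, a procollagen amino-propeptidase, was 1.41-fold higher (6.71 against 6.21), but its further probe set differed by -0.34. Bmp1, the carboxy-propeptidase, was 1.14-fold higher. Pcolce, its enhancer, differed by 0.03, with a sign that rescaling turned. Tll2, a relative of Bmp1, was near the detection level (4.75 and 4.85). Of 6 cross-linking genes 0 were past 1.5-fold (median 0.06, negative after each rescaling). Loxl1, a lysyl oxidase, was 1.37-fold lower (9.38 against 9.84), Tgm2, a transglutaminase, 1.33-fold higher (7.86 against 7.44) and Loxl3 1.17-fold higher, while Lox differed by 0.08, with a sign that rescaling turned.

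Fibril-associated proteins lay on both sides, with 3 of 13 detected members 1.5-fold higher and 1 lower, against 10.7% and 6.4% of all detected genes. The median was 0.24, and 0.09 with probe sets averaged, with no level filter or at the stricter level. Dcn, the proteoglycan decorin that binds type I fibrils, was at 9.86 after anti-CD84 and 9.11 after IgG1, 1.69-fold higher. Prelp, a proteoglycan that links basement membrane to fibrils, was at 9.05 and 9.88, 1.78-fold lower. Its further probe set differed by -0.21, and the average of both by -0.52, which is inside 1.5-fold. Postn, a fibril-binding matricellular protein, was 1.54-fold higher (8.88 against 8.26), and Cthrc1, a secreted protein with a short collagen-like repeat, was 1.52-fold higher (5.74 against 5.13). After centring on the median 1 member of this list was higher and 2 lower, Dcn against Prelp and Comp. Sparc, which binds type I and type IV collagen, was 1.38-fold lower (11.04 against 11.51).

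Of 12 detected genes for other basement membrane proteins 8 had a positive difference, as did 7847 of all 13290 detected genes. Of the 12, 1 was 1.5-fold higher and 0 lower, against 10.7% and 6.4% of all detected genes, with a median of 0.26. That median was 0.14 to 0.17 after the 3 rescalings, 0.14 with no level filter and 0.37 at the stricter level. Lama2, a laminin chain of muscle, was at 9.37 after anti-CD84 and 8.71 after IgG1, 1.58-fold higher, and was inside 1.5-fold after each of 3 rescalings. Lama4, a laminin chain of vessels, was 1.43-fold higher (7.73 against 7.21), and the laminin chains Lamb2 and Lamb3 were 1.36-fold (8.45 against 8.003) and 1.35-fold higher (5.64 against 5.20). Nid1, which ties laminin to type IV collagen, was 1.33-fold higher (11.42 against 11.002), and its further probe set differed by 0.24. These differences are set beside that of Col4a1 without a test.

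Collagen receptors had 0 of 7 detected members past 1.5-fold (median 0.12). Ddr2, the receptor kinase for fibrillar collagens, was 1.24-fold higher (11.41 against 11.09), and Itga11, an integrin chain that binds type I collagen, was 1.23-fold higher (9.38 against 9.08). Adgrg1, a receptor for type III collagen, was at 4.97 and 4.56, at least 1.10-fold higher. Itga1, an integrin chain with a preference for type IV collagen, differed by 0.12 (5.66 and 5.54).

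Of 8 detected collagen breakdown genes 2 were 1.5-fold higher and 0 lower, against 10.7% and 6.4% of all detected genes. The median was 0.25, and 0.14 to 0.15 with no level filter, at the stricter level or with both arrays required above the detection level. Pepd, the dipeptidase that releases proline from collagen fragments, was at 7.68 after anti-CD84 and 6.84 after IgG1, 1.79-fold higher. Mmp13, a collagenase that cleaves type II and type I fibrils, was at 6.38 and 4.07, at least 2.92-fold higher. The lysosomal protease Ctsb was 1.48-fold higher (11.88 against 11.32), and Mmp14, the membrane-bound collagenase, 1.28-fold higher (12.01 against 11.66). The collagenases Mmp8 and Mmp1a were below the detection level on both arrays.

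**Figure D5:**
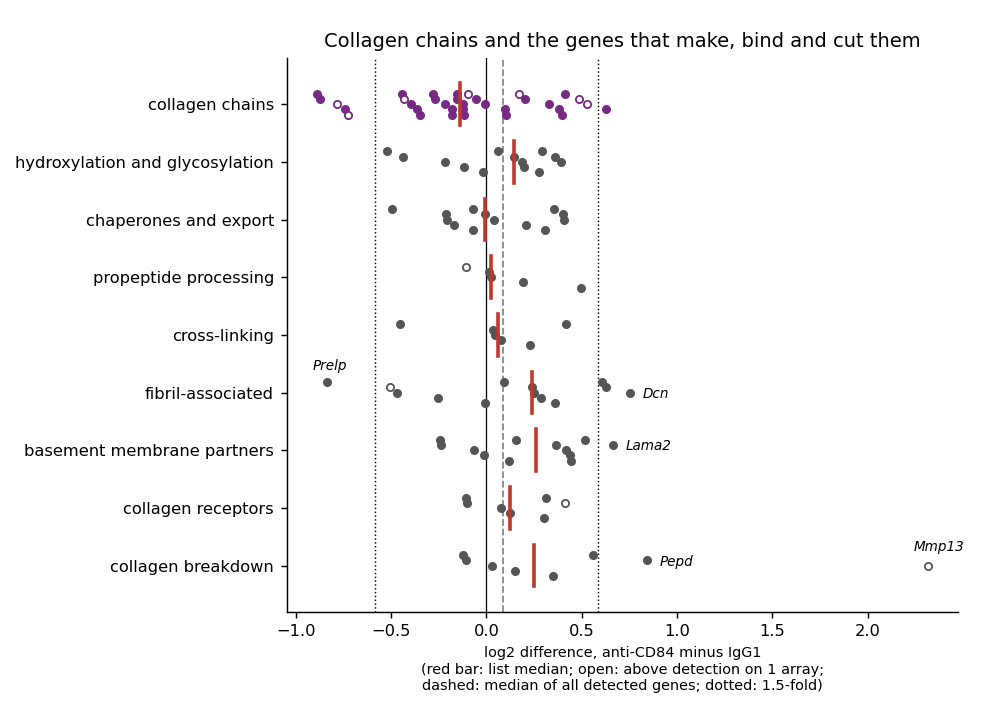
Log2 difference (anti-CD84 minus IgG1) of the detected collagen chains and of the detected genes of 8 pathway lists, with list medians as red bars and the median of all detected genes (0.09) as a dashed line. The median of the collagen chains lies at -0.14, that of basement membrane partners at 0.26 and that of collagen breakdown genes at 0.25.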

How the data were processed

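Each treatment of M210B4 cells gave 1 Affymetrix Mouse Gene 2.0 ST array. The deposited values are log2 expression per probe set, and per the submitters' processing notes RMA (background correction, quantile normalization and probe summary) and Partek were used, with no versions. The log2 scale was inferred from the values (1.82 to 13.8, medians 4.87 and 4.88). The sources used here name neither the genome build nor the summary annotation. RMA compresses dim differences towards 0.

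Of 41345 probe sets 23521 have 1 gene symbol in GEO's platform annotation and 1814 have several, which were not used. One such probe set lists Col6a1 with 3 other genes. A gene was represented by its brightest probe set. All 44 chains matched RefSeq gene IDs (GRCm38.p6) with 0 symbols differing. Fixed gene lists were used; the members and lists were chosen with earlier results of these data known. Named genes were every detected chain, list members past 1.5-fold, otherwise up to 4 per list by absolute difference, and heterotrimer partners. Serpinh1, Sparc, Nid1, Mmp8 and Mmp1a were added after their values were seen. The alternatives were 3 rescalings (median centring, a limma loess curve with span 0.4, quantile normalization), no level filter, a stricter level of 6.88 (the 75th percentile over both arrays), both arrays above the detection level, the mean of all probe sets and values floored at the detection level. Counting was tested on simulated data. Loess fits ran in R 4.3.3 with limma 3.58.1, and all else in Python 3.11.15 with pandas 2.3.3, numpy 2.4.6 and matplotlib 3.10.9.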

Additional observations from a re-analysis of the deposited data

How the results depend on the processing

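The median difference of the collagen chains stayed negative under all 8 alternatives, from -0.23 with the differences centred to -0.12 with probe sets averaged. The count of chains 1.5-fold higher, 1 as reported, became 0 with centring, 2 with the loess curve removed (Col13a1 and Col9a3) and 0 with the stricter level. The count 1.5-fold lower, 5 as reported, became 2 with the stricter level (Col2a1 and Col4a1) and 3 with both arrays required above the detection level. It was 4 with floored values, where Col28a1 dropped out. Col2a1 ranged from -1.002 to -0.89 and Col4a1 from -0.99 to -0.87, and both stayed past 1.5-fold under all 8. Only the 3 rescalings could change these values, since both genes have 1 probe set and lie above the stricter level on both arrays. The -1.002 of Col2a1, with the loess curve removed, is past 2-fold. Averaging probe sets turned the sign of Col1a2 (-0.12), Col5a1 (0.14) and Col6a1 (0.17). No paired analysis was possible because each group has 1 array, and no replicate could be left out. A chain near the detection level can have a compressed difference, so a small value there does not show that it did not change. Nor does a large value there show a change, since dim genes scattered more widely.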
